A study of Mus musculus with 6 samples.

Results

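Ptprz1 and 7 genes of Schwann cells, the glia that support and wrap peripheral axons, were described in RNA from sorted synovial fibroblasts. They were taken by symbol from the table of raw read counts, and all 8 were found among its 24348 genes. The genes are Ptprz1, Sox10, S100b, Erbb3, Cdh19, Mbp, Pmp22 and Foxd3. All 8 passed the filter on low counts, and DESeq2 gave 6 of them an adjusted p, with none for Sox10 and Foxd3 at their low counts. Ptprz1 was selected on its measured values, chosen by a fold change between IC and vehicle that was among the lowest of the called genes, so its values in that contrast are a description and carry no test. The other 7 were brought together with earlier results of the same contrast known, and their fitted changes are likewise given as estimates with no p.

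The study asked how cells of the joint lining respond to circulating immune complexes. Total RNA was sequenced from fibroblasts sorted out of collagenase-digested synovium of wild-type adult C57BL/6 mice. In the IC group 3 libraries came from mice given immune complexes (IC) into a vein, which the study made from ovalbumin and rabbit antiserum against it. The 3 libraries of the vehicle group came from mice given the control injection, and both groups carry the same unmodified genotype. The labels do not give the time after injection, the sort gate, or whether a library is 1 mouse, so p-values measure only the spread between these libraries, which may be technical.

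Ptprz1 encodes a receptor-type tyrosine phosphatase best known from glia, whose extracellular part carries chondroitin sulfate chains and binds the growth factors pleiotrophin and midkine. Sox10 is the transcription factor that defines the Schwann lineage, and Erbb3 is the receptor through which axonal neuregulin keeps that lineage alive and drives myelination. Peripheral nerve fibres run through the synovium, and their glia are not the target of a fibroblast sort.

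Total counts ran from 40114331 to 56714304 per library and overlapped between the groups. Markers of fibroblasts summed to 44300 to 55100 CPM (counts scaled to the total of the library), while the 8 genes summed to 246 to 315. Most of the sum of the 8 genes came from Pmp22, which alone had 192 to 236 CPM and is not confined to Schwann cells. Values per library below are normalized counts, meaning counts divided by the DESeq2 size factor, and genes are compared with each other only per kilobase of exon. A gene was called at an adjusted p under 0.05 by the DESeq2 Wald test over 19925 genes, which called 2.1% of them, 1.07% lower and 1.03% higher in IC. Of the 8 genes 1 was called, Ptprz1, and with its choice resting on that contrast nothing is read from the count. The quasi-likelihood test of edgeR called 0 of the 8, as did limma-voom, against 0.186% and 0.311% of all genes, and each of the 3 tools gave 2 of the 8 an unadjusted p under 0.05, which DESeq2 gave to 9.8%, edgeR to 9.64% and limma-voom to 10.3% of all tested genes. The groups did not overlap for Ptprz1, lower in IC, and for Erbb3, higher in IC. Over all tested genes 7.67% were lower in IC without overlap and 8.09% were higher, 15.8% in all. The median log2 fold change of the 8 genes was −0.13, beside −0.0019 over all tested genes.

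Ptprz1 lies on the plus strand of chromosome 6 (GRCm38, 22875502 to 23052916), with 6 annotated transcripts and 30 exons in the longest. It had 67.2, 52.7 and 26.0 normalized counts in IC replicates 1, 2 and 3. In vehicle replicates 1, 2 and 3 it had 283, 185 and 91.2. Every IC library was below every vehicle library, yet each group spread widely, by 2.59-fold within IC and 3.10-fold within vehicle. The means were 48.6 ± 20.9 in IC and 186 ± 95.9 in vehicle (SD, n = 3 each), a level 3.86-fold higher in vehicle. On the log2 scale the fitted difference was −1.95 ± 0.458 (SE), with a 95% interval of −2.85 to −1.05.

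Depth limits Ptprz1, since its raw counts were 61, 51 and 29 in IC and 345, 196 and 75 in vehicle. The nearest libraries of the groups were IC replicate 1, with an exact 95% Poisson interval of 46.7 to 78.4 counts, and vehicle replicate 3, with 59 to 94. These intervals cover counting error only, and they overlapped. Leaving out vehicle replicate 1 gave −1.52 and ended the call, while the other 5 fits with a library left out kept it. In bulk RNA, fewer cells of a type and less RNA per cell cannot be told apart, for this gene and for every other below.

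The 250 bases upstream of the Ptprz1 start are shown because it had the lowest fold change of the 8 genes. They are printed 5′ to 3′ from the plus strand, from the RefSeq table of build GRCm38.p6, at chr6:22875252-22875501.
Ptprz1: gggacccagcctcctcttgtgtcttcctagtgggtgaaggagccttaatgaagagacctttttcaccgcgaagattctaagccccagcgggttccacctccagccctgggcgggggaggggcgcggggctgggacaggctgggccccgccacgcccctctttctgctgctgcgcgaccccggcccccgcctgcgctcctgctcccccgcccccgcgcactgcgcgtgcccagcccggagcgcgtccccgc
No letters are in capitals, because neither SOX-type motif searched, ACAAAG or ACAATG on either strand, occurred in it. Windows were found for 4 of the 8 genes (Ptprz1, S100b, Foxd3 and Pmp22), 7 windows in all, and 0 of the 7 held either motif. Of 32851 RefSeq windows of that length, 16.5% held the first, 10.7% the other and 25.2% at least 1 of them. The Ptprz1 window was 71.6% G and C. Absence of these letters from the windows says nothing about binding elsewhere.

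**Figure D1:**
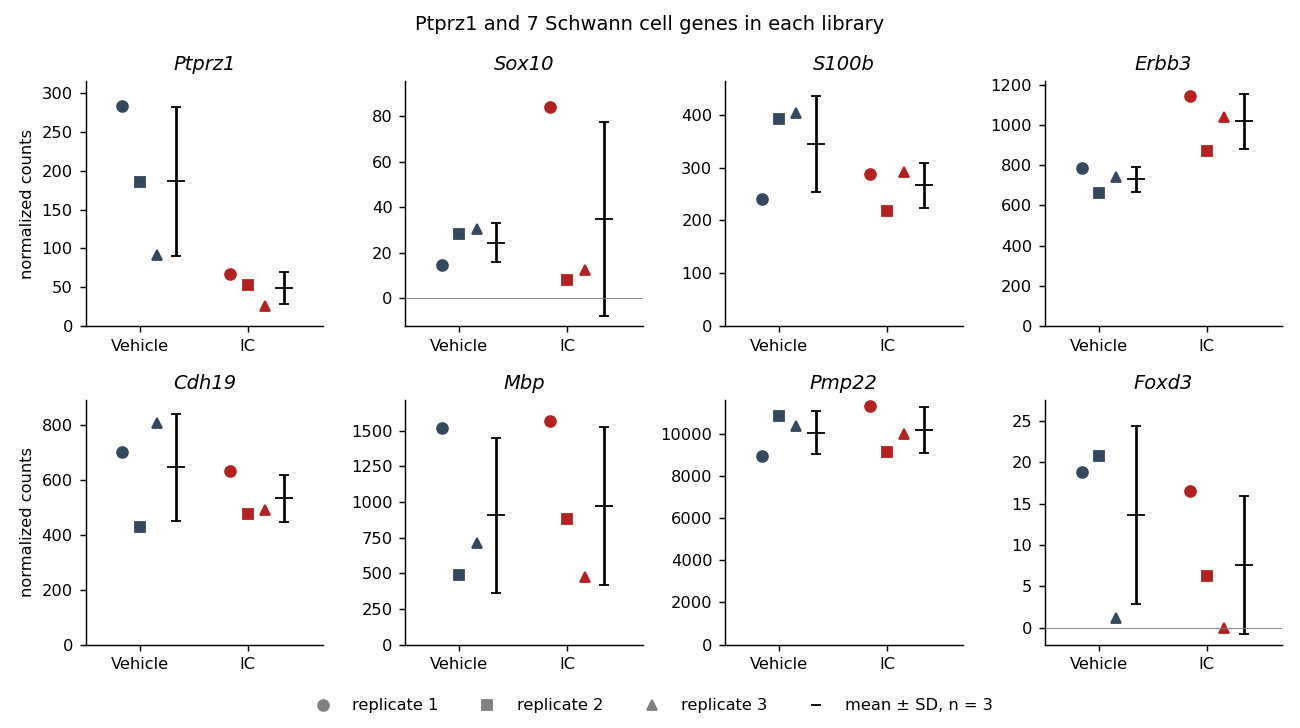
Normalized counts of the 8 genes in each library, with vehicle at the left and IC at the right of each panel. Points are libraries, shaped by replicate number, and bars are the mean ± SD (n = 3). The groups are apart for Ptprz1, lower in IC, and for Erbb3, higher in IC, and overlap in the other 6 panels.

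Sox10 and Foxd3, the transcription factors of the set, had the lowest counts of the set. Sox10 (chromosome 15, 79154908 to 79165240, minus strand) had 83.8, 8.27 and 12.6 normalized counts in IC replicates 1, 2 and 3. In vehicle replicates 1, 2 and 3 it had 14.8, 28.3 and 30.4. IC replicate 1 stood far above the other 5 libraries, and the other IC libraries were below all 3 of vehicle. The separation inside IC was beyond counting error, with 76 raw counts in replicate 1 (exact 95% Poisson interval 59.9 to 95.1) and 8 in replicate 2 (3.45 to 15.8). With all libraries the log2 fold change was 0.51 ± 0.852 (SE), and without IC replicate 1 it was −1.23.

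Foxd3, which marks early neural crest and its glial precursors, lies on chromosome 4 (99656299 to 99658622, plus strand) in 1 exon. It had 16.5, 6.20 and 0 normalized counts in IC and 18.9, 20.8 and 1.22 in vehicle. Replicate 3 was lowest in both groups and the groups overlapped. The 0 in IC replicate 3 allows up to 3 counts, or 2.69 normalized counts. The log2 fold change of −0.86 had a standard error of 1.38, wider than the estimate, and 3.83% of its exon sequence is shared with a miRNA gene not analysed here.

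S100b encodes a calcium-binding protein abundant in Schwann cells and lies on chromosome 10 (76253853 to 76261159, plus strand). It had 289, 218 and 292 normalized counts in IC and 240, 392 and 404 in vehicle. Vehicle replicate 1 fell inside the range of IC, while vehicle replicates 2 and 3 were above all IC libraries. Its log2 fold change was −0.37 ± 0.254 (SE), with a 95% interval of −0.87 to 0.13.

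Erbb3 lies on chromosome 10 (128567523 to 128589652, minus strand) in 28 exons. It had 1143, 871 and 1039 normalized counts in IC replicates 1, 2 and 3. In vehicle it had 785, 662 and 741. Every IC library was above every vehicle library, the opposite of Ptprz1. The means were 1018 ± 137 in IC and 729 ± 62.1 in vehicle (SD, n = 3 each), 1.40-fold, for a log2 fold change of 0.48 ± 0.151 (SE) and a 95% interval of 0.19 to 0.78. It was not called with all libraries by DESeq2, edgeR or limma-voom. Of the 6 fits with a library left out only 2 called it, without IC replicate 2 (log2 fold change 0.58) and without vehicle replicate 1 (0.54). It was also called when only genes averaging 100 normalized counts or more were tested.

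The neuregulin and ErbB genes listed around Erbb3 gave no call. Of 13 listed neuregulin and ErbB genes 12 were in the table, 11 were tested and 0 were called by DESeq2, edgeR or limma-voom. DESeq2 gave 9 of the 11 an adjusted p, with none for Nrg1 and Erbb4, so it could not call these. None of the 11 had an unadjusted p under 0.05 by any of the 3 tools, and their median log2 fold change was −0.08. Egfr, the receptor of epidermal growth factor, had −0.05, Errfi1, a feedback inhibitor of it, −0.08, and Shc1, an adaptor, 0.05, with DESeq2 adjusted p of 0.922, 0.877 and 0.942. Erbb2, the partner that Erbb3 needs to signal, was looked up after its values were seen and had 2509, 2487 and 2525 normalized counts in IC and 2343, 2601 and 2564 in vehicle. Its log2 fold change was 0.00 with a 95% interval of −0.18 to 0.19.

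Cdh19, a cadherin of Schwann cells and their precursors, lies on chromosome 1 (110888326 to 110977584, minus strand). It had 633, 477 and 489 normalized counts in IC and 701, 430 and 807 in vehicle. Vehicle replicate 2 was the lowest of the 6 and vehicle replicate 3 the highest, so IC lay within the vehicle range. The log2 fold change was −0.28 ± 0.223 (SE), with a 95% interval of −0.71 to 0.16.

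Mbp, on chromosome 18, and Pmp22 encode structural proteins of myelin. Mbp had 1566, 879 and 471 normalized counts in IC and 1519, 488 and 711 in vehicle. Replicate 1 was the highest library of each group, and spread within a group was 3.32-fold in IC and 3.11-fold in vehicle. Its log2 fold change was 0.10 ± 0.667 (SE). The DESeq2 dispersion of Mbp, a measure of spread beyond counting, was 20.0 times the value typical of genes at its level, against 0.708 times for Erbb3 and 2.46 times for Ptprz1.

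Pmp22 lies on chromosome 11 (63128982 to 63159547, plus strand) and is also known from growth-arrested fibroblasts. It had 11310, 9148 and 9997 normalized counts in IC and 8926, 10850 and 10380 in vehicle. The groups overlapped throughout, and no library was more than 1.24-fold from another of its group. The log2 fold change was 0.01 with a 95% interval of −0.18 to 0.21, the narrowest of the set.

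Per kilobase of exon, the levels over the 6 libraries ran from 4292 ± 399 normalized counts for Pmp22 down to 4.56 ± 3.98 for Foxd3 (SD). S100b had 206 ± 51.7, Erbb3 145 ± 30.7, Cdh19 138 ± 34.7 and Mbp 111 ± 58.0. Sox10 had 9.73 ± 9.15 and Ptprz1 8.25 ± 6.86. In that order only the steps from Pmp22 to S100b and from Mbp to Sox10 were larger than the summed SDs of the neighbours. S100b, Erbb3, Cdh19 and Mbp did not differ from their neighbours beyond that spread, nor did Sox10, Ptprz1 and Foxd3. Ptprz1 thus sat with the transcription factors at the bottom of the set. Per kilobase of the longest transcript Ptprz1 had 14.57 and Sox10 10.67, which turns their order, and Mbp had 195.8, above Erbb3 and Cdh19.

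**Figure D2:**
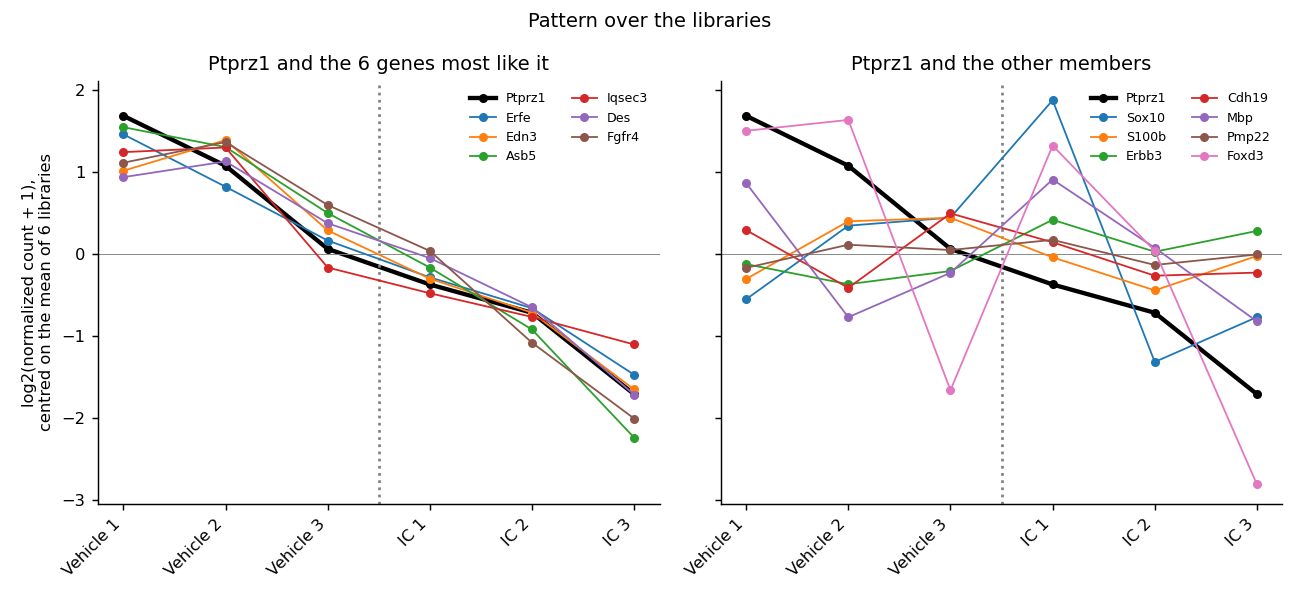
log2(normalized count + 1) of each gene in the 6 libraries, centred on its own mean; lines join the values of a gene and libraries of a group have no order. The left panel shows Ptprz1 with the 6 genes most like it, which were chosen for that, and the right panel shows Ptprz1 with the other 7 members, the nearest of which, Cdh19, is at a difference of 1.08.

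Each gene was also set beside Ptprz1 over the 6 libraries, as a description that uses the values Ptprz1 was chosen by. Likeness was measured as the root mean square difference between centred log2(normalized count + 1) values over the 6 libraries, where a smaller value is closer. Among 19924 other tested genes Cdh19 was the closest member, at 1.08 and rank 4868. Mbp followed at 1.10, S100b at 1.12 and Pmp22 and Foxd3 at 1.15. Erbb3, at 1.33, and Sox10, at 1.41 and rank 17157, were among the least like it. A gene with the same value in every library would be at 1.12, so the members near that value are at the distance of a flat gene, whatever cell they mark.

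Ratios within a library were taken next, again with the values that chose Ptprz1. As a percent of Cdh19 per kilobase, Ptprz1 was 3.19, 3.32 and 1.60 in IC and 12.1, 12.9 and 3.39 in vehicle. As a percent of Erbb3 it was 2.48, 2.55 and 1.06 in IC and 15.2, 11.8 and 5.20 in vehicle. Neither ratio overlapped between the groups. For Erbb3 that was fixed in advance, since Ptprz1 was lower and Erbb3 higher in IC without overlap, so nothing is read from it. For Cdh19 the margin was slight, 3.32 in IC replicate 2 and 3.39 in vehicle replicate 3.

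The 6 genes most like Ptprz1 were sought among the 13429 genes averaging 100 normalized counts or more. They were Erfe, which encodes the hormone erythroferrone, at 0.180, Edn3, which encodes endothelin 3, at 0.318, and Asb5, a gene of muscle precursors, at 0.323. Iqsec3, an exchange factor for small GTPases, followed at 0.336, Des, which encodes the muscle filament desmin, at 0.358, and Fgfr4, a fibroblast growth factor receptor, at 0.425. With the mean absolute difference in its place, 5 of the 6 were named again. Being chosen for likeness to a gene whose groups were apart, all 6 were lower in IC without overlap, and no test of that is given.

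Erfe had 499, 385 and 219 normalized counts in IC and 1675, 1075 and 682 in vehicle. Edn3 had 175, 131 and 68.1 in IC and 438, 568 and 264 in vehicle. Asb5 had 271, 160 and 63.6 in IC and 891, 753 and 430 in vehicle. In all 3 IC replicate 3 was the lowest library and vehicle replicate 3 the lowest of vehicle, as for Ptprz1.

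Of these, Asb5 and Des belong to the list of muscle satellite cells, the stem cells of skeletal muscle, written from textbook knowledge. Like the other lists it was written with earlier results of these data known. All 10 genes of that list were tested, with a median log2 fold change of −1.56. Of them 0 were called higher and 4 lower, against 1.03% and 1.07% of all tested genes. Of the 10, 9 were lower in IC without overlap, against 7.67% of all tested genes, and none was at 0 in any library. Their summed level was 65.4 to 127 CPM in IC and 151 to 248 in vehicle. Called genes included Megf10, a receptor for engulfment (−1.25, DESeq2 adjusted p 8.17e-12), Myf5, a myogenic factor (−2.08, 0.000122), and Chodl, a membrane lectin (−0.57, 0.00129). Left out in turn, IC replicate 2 (0.289) or vehicle replicate 2 (0.339) ended the call of Myf5. The defining factor Pax7, looked up after its values were seen, had 651, 314 and 135 normalized counts in IC and 1210, 1724 and 717 in vehicle, with rank 21 in likeness to Ptprz1. As a percent of Pax7 per kilobase, Ptprz1 was 4.25, 6.90 and 7.90 in IC and 9.62, 4.42 and 5.23 in vehicle, which overlapped. As a percent of Asb5 it was 3.21, 4.26 and 5.28 in IC and 4.11, 3.18 and 2.74 in vehicle, which also overlapped. Asb5 was chosen for its likeness to Ptprz1, and Pax7 was seen to be close to it. Overlap of the ratios follows from that, so nothing is read from it. The part of these cells in the Ptprz1 values was not tested.

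Markers of mature muscle and of vessels gave called genes too, all lower in IC, where 1.07% of all tested genes were called lower. Of 14 tested genes of skeletal muscle 0 were called higher and 4 lower, with a median log2 fold change of −1.64 and sums of 23.8 to 46.6 CPM in IC against 43.0 to 107 in vehicle. Those with the smallest adjusted p by DESeq2 were Ttn (−1.20, 0.000392), Myh1 (−2.96, 0.00311) and Actn3 (−1.59, 0.00351), all parts of the contractile apparatus. These calls were lost without vehicle replicate 2 (0.0625, 0.0764 and 0.0786), and that of Myh1 also without IC replicate 3 (0.0521) or vehicle replicate 1 (0.170). Of 13 endothelial genes 3 were called lower and 0 higher, Kdr (−0.70, 3.45e-05 by DESeq2), Cdh5 (−0.74, 0.0496) and Cldn5 (−0.62, 0.0496), with sums of 232 to 329 in IC and 332 to 394 in vehicle. Of 9 mural genes, of the cells around vessels, 1 was called, Myh11 (−0.96, 0.0131), with sums of 500 to 609 in IC and 591 to 637 in vehicle. The genes of highest mean in these lists were not called, Tnnt3 of muscle (−0.15, DESeq2 adjusted p 0.900), Tek of endothelium (−0.07, 0.888) and Notch3 of mural cells (−0.30, 0.0559). The calls of Cdh5, Cldn5 and Myh11 each failed in 5 of 6 fits with a library left out, holding only without IC replicate 1 for Cdh5 and Myh11 and without IC replicate 2 for Cldn5, with 0.0561 to 0.469 otherwise. Their part in the results on Ptprz1 was not tested either. The edgeR test called 1 of the satellite cell genes and 0 of the muscle, endothelial and mural genes. It gave 10, 6 and 3 of the latter an unadjusted p under 0.05, against 9.64% of all tested genes.

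**Figure D3:**
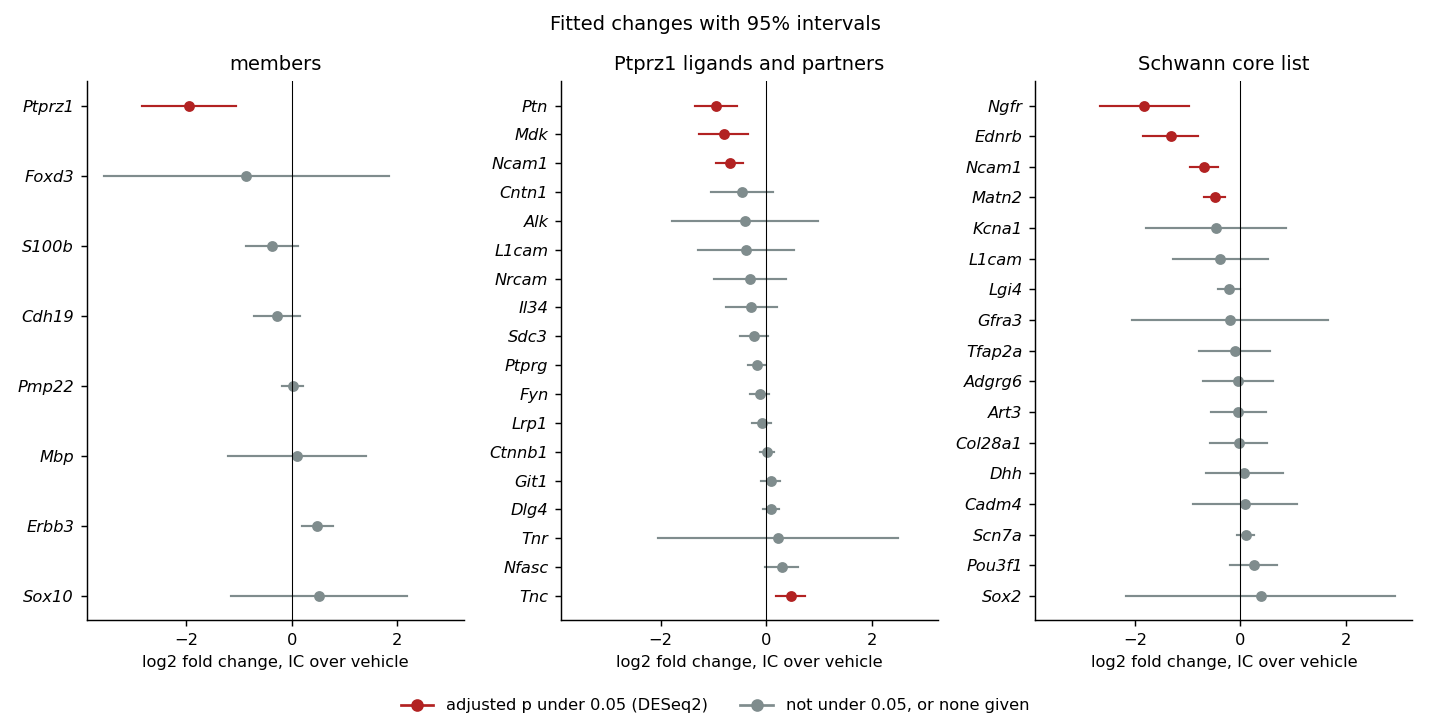
Fitted log2 fold changes of IC over vehicle (DESeq2, points) with 95% intervals (lines) for the 8 members, the 18 tested Ptprz1 ligands and partners and genes of the Schwann core list. Red marks an adjusted p under 0.05, given to Ptprz1, to 4 ligands and partners (Ptn, Mdk and Ncam1 lower, Tnc higher) and to the 4 core genes drawn in red, all lower.

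Calls were also found among genes whose products bind Ptprz1 or act with it. All 18 listed ligands and partners were tested, with a median log2 fold change of −0.21. DESeq2 called 3 lower and 1 higher, against 1.07% and 1.03% of all tested genes. The list was written with earlier results of these data known, so nothing is read from these counts. Neither edgeR nor limma-voom called any. Each of the 3 tools gave 5 an unadjusted p under 0.05, against 9.64% to 10.3% of all tested genes. The edgeR adjusted p of the 4 called genes ran from 0.0585 to 0.260.

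Ptn, which encodes the ligand pleiotrophin, had 245, 240 and 200 normalized counts in IC and 414, 485 and 419 in vehicle. The groups were far apart and each was tight, with means of 228 ± 24.6 and 439 ± 39.2 (SD, n = 3 each). It fell by 0.95 on the log2 scale (SE 0.204, DESeq2 adjusted p 0.00055), and the call held with each library left out. Mdk, which encodes the related ligand midkine, had 218, 192 and 239 in IC and 294, 471 and 372 in vehicle. Its groups did not overlap and it fell by 0.81 (SE 0.240, DESeq2 adjusted p 0.0355), but only 1 of the 6 fits with a library left out, that without vehicle replicate 1, kept the call, the others giving 0.0614 to 0.276.

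Ncam1, an adhesion molecule of neurons, glia and muscle that is also in the Schwann core list, had 2279, 1937 and 1975 normalized counts in IC and 3177, 4021 and 2792 in vehicle. It fell by 0.69 on the log2 scale (SE 0.132, DESeq2 adjusted p 5.31e-05), with no overlap. Tnc, which encodes the matrix ligand tenascin C, went the other way, with 3781, 5406 and 4762 in IC and 2821, 3911 and 3397 in vehicle. Its groups overlapped, it rose by 0.46 (SE 0.137, DESeq2 adjusted p 0.0351), and the call was lost when IC replicate 2 (0.411) or 3 (0.198) was left out, and likewise for vehicle replicate 1 (0.199) or 3 (0.258).

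The other 14 were not called. They included Ptprg, the phosphatase closest to Ptprz1 in structure, which was looked up after its values were seen. It had 4933, 4581 and 4992 normalized counts in IC and 5540, 5514 and 5345 in vehicle, a log2 fold change of −0.18 (SE 0.0807, DESeq2 adjusted p 0.331). As a percent of Ptprg per kilobase, Ptprz1 was 1.05, 0.889 and 0.402 in IC and 3.95, 2.60 and 1.32 in vehicle, with no overlap. Measured against its ligand Ptn the groups did overlap, at 6.62, 5.30 and 3.13 percent in IC and 16.5, 9.21 and 5.24 in vehicle, and against Mdk they overlapped too.

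Genes known from Schwann cells at any stage were given by a list of 22 besides the members, of which 19 were in the table and 18 were tested. DESeq2 called 5, all lower, against 1.07% of all tested genes called lower, and edgeR and limma-voom called 1 each. This list too was written with earlier results of these data known, so its count is a description and not a test. The list's median log2 fold change was −0.15, and its summed level was 529 to 560 CPM in IC and 632 to 696 in vehicle. The 4 of them named below are expressed outside Schwann cells as well.

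Ngfr, the low-affinity neurotrophin receptor of immature and repair Schwann cells, had 1221, 747 and 1376 normalized counts in IC and 2511, 5783 and 3498 in vehicle. It fell by 1.82 on the log2 scale (SE 0.431, DESeq2 adjusted p 0.0025, edgeR 0.0338). Ednrb, the receptor of endothelin 3, had 130, 115 and 100 in IC and 227, 314 and 323 in vehicle, and fell by 1.32 (SE 0.270, DESeq2 adjusted p 0.0002). Matn2, a matrix protein, had 4539, 4239 and 4834 in IC and 6458, 5548 and 7044 in vehicle, and fell by 0.48 (SE 0.102, DESeq2 adjusted p 0.000361). Including Ncam1, these 4 genes were lower in IC without overlap, like 7.67% of all tested genes. Each of the 4 kept its call with every single library left out. In likeness to Ptprz1 over the libraries Ednrb was at 0.740 and rank 275, Ncam1 at 0.816 and rank 511, and Ngfr at 0.874 and rank 786.

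Myelin genes gave no call. Of 15 listed genes besides the members 14 were in the table, 13 were tested and 0 were called by DESeq2, edgeR or limma-voom. Each tool gave 2 an unadjusted p under 0.05, against 9.64% to 10.3% of all tested genes. Fitted changes were higher in IC for 7 and lower for 6, with a median of 0.05 on the log2 scale. Egr2, the transcription factor of myelination, had the highest mean of the list and ran from 7149 to 7433 in IC and from 7909 to 8091 in vehicle, with no overlap, and a log2 fold change of −0.12 (DESeq2 adjusted p 0.553). Drp2, a partner of the dystroglycan complex of myelinating cells, had 1975, 1382 and 808 in IC and 3069, 3480 and 2263 in vehicle. Its groups did not overlap, with a log2 fold change of −1.08 (SE 0.391) and a DESeq2 adjusted p of 0.133.

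**Figure D4:**
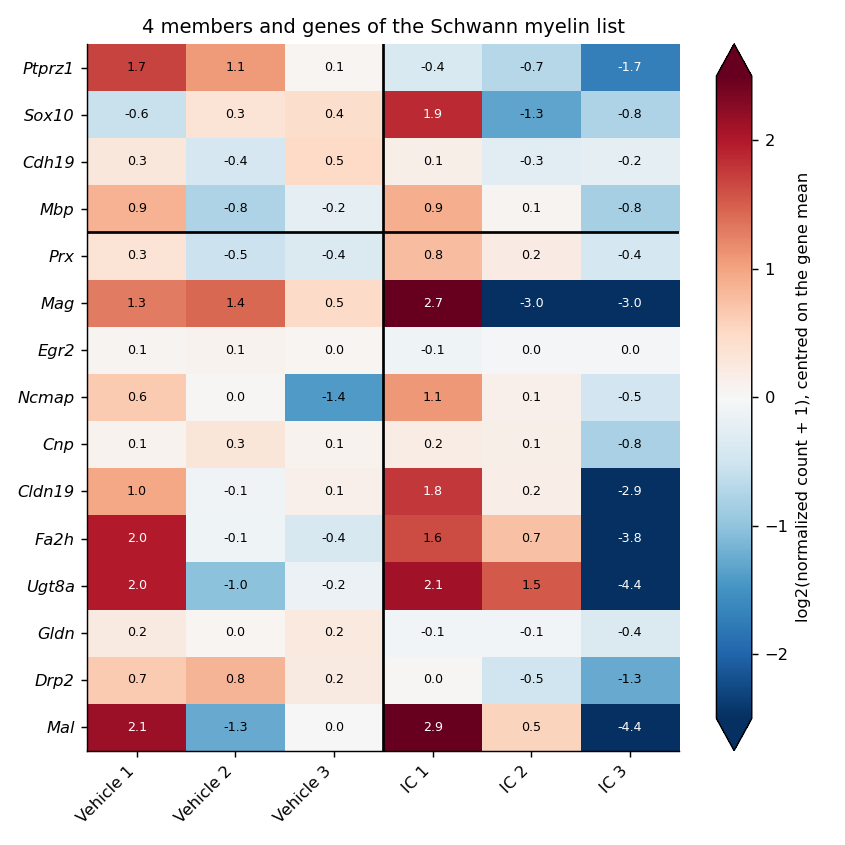
log2(normalized count + 1) centred on each gene's mean, for Ptprz1, Sox10, Cdh19 and Mbp (above the line) and 11 of the tested myelin genes, in the 6 libraries; colours stop at ±2.5 and the numbers give the values. Most myelin genes are high in IC replicate 1 and low in IC replicate 3. Without overlap, 3 are lower in IC, as are 7.67% of all tested genes.

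The libraries of a group differed in the level of myelin genes. IC replicate 1 was the highest IC library for 11 of the 13 myelin genes (84.6%, against 31.7% of all tested genes) and for 7 of the 8 members. IC replicate 3 was the lowest IC library for 11 of the 13 (84.6%, against 37.3%). In vehicle, replicate 1 was the highest for 8 of 13 (61.5%, against 35.2%). The summed level of the list was 314, 256 and 205 CPM in IC replicates 1, 2 and 3 and 334, 291 and 260 in vehicle. A large part of it was Egr2, with 149, 157 and 153 CPM in IC and 171, 164 and 162 in vehicle. Of the listed genes 5 were at 0 in at least 1 library. IC replicate 1 and vehicle replicate 1 were also the highest of their groups for Ptprz1. The same order inside IC held for all 10 satellite cell genes, with replicate 1 highest and replicate 3 lowest, against 10 of the 13 myelin genes (76.9%) and 18.3% of all tested genes. It also held for 66.7% of the mural and 57.1% of the skeletal muscle genes. Vehicle replicate 1, however, was the highest of vehicle for only 2 of the 10 satellite cell genes (20%, against 35.2%).

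The repair programme of injured Schwann cells gave no called gene. Of 10 listed injury response genes 9 were in the table and tested, and 0 were called by DESeq2, edgeR or limma-voom. All 9 had a fitted change below 0, against 50.4% of all tested genes, with a median of −0.37. Of the 9, 3 were lower in IC without overlap, against 7.67% of all tested genes. An unadjusted p under 0.05 went to 1 by DESeq2, 1 by edgeR and 2 by limma-voom, against 9.8%, 9.64% and 10.3% of all genes. Those of highest level were Jun, the regulator of that programme and a common early response gene (−0.06, DESeq2 adjusted p 0.896), Clcf1, a cytokine (−0.37, 0.173), and Lif, a related cytokine (−0.21, 0.759).

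Markers of cells near Schwann cells in nerve or lineage gave few calls, where 2.1% of all tested genes were called. Of 6 tested melanocyte genes, which share Sox10 and Ednrb with glia by descent from the neural crest, 0 were called by the 3 tools. DESeq2, edgeR and limma-voom gave 3, 2 and 1 an unadjusted p under 0.05, against 9.8%, 9.64% and 10.3% of all tested genes. The melanocyte sums were 115 to 116 CPM in IC and 118 to 128 in vehicle, mostly from Mitf (log2 fold change −0.0018). The list's median log2 fold change was −0.59, and 5 of the 6 were fitted lower, against 50.4% of all tested genes. Of the 6, 2 were lower in IC without overlap, against 7.67%. Of the 8 listed genes 2 were at 0 in at least 1 library. Of 7 tested neuronal genes 1 was called higher, Tac1, the precursor of substance P, with 879, 1117 and 1167 normalized counts in IC and 657, 557 and 641 in vehicle (0.77, DESeq2 adjusted p 0.000173). The neuronal sums were 30.1 to 34 in IC and 20.9 to 23.4 in vehicle, and without Tac1 (18.3 to 24.1 in IC and 11.3 to 14.1 in vehicle) they were 8.38 to 11.7 in IC and 8 to 9.62 in vehicle, which overlapped. Of 9 perineurial and endoneurial genes 1 was called, Cldn1, a tight junction protein (−0.53, DESeq2 adjusted p 0.0417, held only without vehicle replicate 2 and 0.0751 to 0.208 without any other library), with sums of 237 to 249 in IC and 243 to 303 in vehicle, and Osr2, highest of that list, had −0.16 (0.600). The part of these cells in the values of the 8 genes was not tested.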

How the data were processed

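The authors trimmed reads with Trim Galore, aligned them to mm10 with HISAT2 and counted them per gene with featureCounts. The deposited values are raw counts, not normalized. Versions, annotation and strand setting are not given in the sources used here. The labels name an Illumina stranded total RNA kit and the study's methods a SMARTer kit, and the methods state a batch removal with sva without its step. Members and gene lists were chosen with earlier results of these data known.

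From the counts, 19925 genes reached 10 counts in 3 or more libraries and were tested (4423 did not) with the Wald test of DESeq2 (version 1.42.0, R 4.3.3) with treatment as the only term and Benjamini-Hochberg adjusted p under 0.05, and 3870 of them received no adjusted p. Log2 fold changes are unshrunken. A value of 0 counts allows up to 3. An exact permutation test of 3 against 3 libraries cannot go below 0.1, so none is given. Lengths and coordinates came from GENCODE M21 by symbol (23899 of 24348, 98.2%), and promoter windows from RefSeq. Likeness to Ptprz1 used log2(normalized count + 1). Named genes were the members, in each pathway list the called genes or, with fewer than 3 called, those of highest mean up to 3, in each cell type list up to 3 called genes by smallest adjusted p and the highest, and the 6 most like Ptprz1. Others are marked as looked up after their values were seen. The lists were 5 pathway lists (Schwann myelin, Schwann core, Ptprz1 ligands and partners, neuregulin and ErbB, Schwann injury response) and markers of 11 cell types. Their counts are over the whole lists, and some listed genes are not reported here by name. Alternatives were edgeR (version 4.0.16), limma-voom (limma 3.58.1), other size factors and filters, 1 surrogate variable (sva 3.50.0), a replicate block, each library left out, longest transcripts and another measure of likeness. The tests were checked on simulated counts.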

Additional observations from a re-analysis of the deposited data

How the results depend on the processing

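Of all tested genes DESeq2 called 419, edgeR 37 and limma-voom 62, and fits with 1 library left out called from 282 to 671, the highest without vehicle replicate 1. Of the 8 members 1 was called, 0 by edgeR or limma-voom, 2 among genes of mean normalized count at least 100, and 1 to 2 with 1 library left out, the 2 being without IC replicate 2. Over the gene lists 26 calls became 2 by edgeR, 4 by limma-voom, and 17 to 31 with 1 library left out, the lowest without vehicle replicate 2. With the longest transcript in place of all exons, the level per kilobase became 195.8 for Mbp, 5545 for Pmp22 and 14.57 for Ptprz1, above the 10.67 of Sox10. The log2 fold change of Sox10 turned negative with limma-voom (−0.18), with the replicate block (−0.30) and without IC replicate 1 (−1.23, the fits without 1 library ranging up to 0.97). That of Mbp turned negative with 1 surrogate variable (−0.15) and without IC replicate 1 (−0.43), vehicle replicate 2 (−0.20) or vehicle replicate 3 (−0.05), ranging up to 0.69. That of Pmp22 turned negative without IC replicate 1 (−0.071) or vehicle replicate 1 (−0.066), ranging up to 0.083. The causes were not tested. Same-numbered libraries showed little shared deviation over 13435 genes (r −0.0918, −0.165 and 0.0250). The largest r was 0.243, for IC replicate 2 with vehicle replicate 1. These values do not show that the numbers pair samples, and they cannot exclude it. With the number as a block, 320 genes were called, 272 of them among the 419, and of the genes named here Ngfr, Mdk, Cldn5 and Cldn1 lost their calls (DESeq2 adjusted p 0.0790, 0.169, 0.0935 and 0.178) while Drp2, Pax7, Des, Fgfr4 and Comp passed the threshold. Without strand in the counting stated, antisense reads cannot be told apart, and Sox10 and Foxd3 are limited by their counts.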

Other observations

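Markers of the sorted cells and of other joint cells were described by the same fit. Of 9 fibroblast genes DESeq2 called 1 higher in IC and 2 lower, against 1.03% and 1.07% of all tested genes. Prg4, which encodes the lubricant lubricin of lining fibroblasts, had 17350, 22050 and 22900 normalized counts in IC and 8263, 13860 and 10410 in vehicle, and rose by 0.94 on the log2 scale (DESeq2 adjusted p 0.0103). Lum, which encodes the proteoglycan lumican, and Col3a1, a collagen gene, fell by 0.36 and 0.38 (DESeq2 adjusted p 0.0025 and 0.00679), while Col1a1, the highest of the list, had −0.12 (0.754). Left out singly, IC replicate 2 (0.150), IC replicate 3 (0.153) or vehicle replicate 3 (0.146) ended the call of Prg4, and vehicle replicate 3 that of Lum (0.0853). The call of Col3a1 was lost for IC replicates 1 and 2 and vehicle replicates 2 and 3 (0.0708 to 0.192). The list summed to 44300 to 46000 CPM in IC and 45200 to 55100 in vehicle.

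Of 7 tested chondrocyte genes 1 was called, Acan, which encodes the cartilage proteoglycan aggrecan, with 228, 398 and 229 normalized counts in IC and 78.7, 123 and 137 in vehicle (1.34, DESeq2 adjusted p 0.0029, and 0.153 without IC replicate 2). Comp, the highest of that list, had 0.39 (0.577), and the sums were 684 to 790 CPM in IC and 427 to 653 in vehicle. Of 10 leukocyte genes 5 were in the table and 4 were tested. None was called by DESeq2, edgeR or limma-voom, with 0 at an unadjusted p under 0.05 by each, and Cd68, the highest, had a log2 fold change of 0.07. The leukocyte sums were 24.7 to 37.3 in IC and 28.1 to 34.3 in vehicle. Of 4 tested adipocyte genes 0 were called by the 3 tools, with 0 at an unadjusted p under 0.05 by each, Car3, the highest, had −0.45 on the log2 scale, and they summed to 3.05 to 3.59 in IC and 4.53 to 5.41 in vehicle.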
